A study of Homo sapiens with 9 samples.

Results

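The BCL2 family was examined through 10 of its genes in RNA sequencing of SKOV3, a long-established cell line from a human ovarian cancer. The genes were chosen by name, with earlier results of these data known. They were 4 BH3-only genes (HRK, BBC3, PMAIP1 and BCL2L11), 2 effectors (BAX and BAK1) and 4 anti-apoptotic genes (BCL2, BCL2L1, BCL2L2 and MCL1). All 10 were found among the 32378 genes of the deposited table, and all 10 were among the 16450 genes that passed the filter on low counts. The groups were 3 libraries labelled Carbo+COM33, 3 labelled Carbo and 3 labelled control. By the series title Carbo stands for carboplatin, a platinum compound whose DNA crosslinks kill dividing cells; for COM33 the labels give a code name only. All 9 libraries came from the same cell line, and the labels give no genotype change, dose or time. There was no group with COM33 alone, so COM33 was only measured on top of Carbo, and the design text states the question as how COM33 raises sensitivity to carboplatin. Nothing in the labels says whether the replicate numbers mark separate cultures, so the p-values cover the spread between the libraries, and that spread may be technical.

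Proteins of the BCL2 family decide whether the outer membrane of the mitochondrion is opened, the step that releases cytochrome c and starts the caspase cascade of apoptosis. The effectors BAX and BAK1 form the pores; the anti-apoptotic proteins hold them, and the BH3-only proteins, in check; and BH3-only proteins, which carry little of the family's structure beyond the BH3 motif, sense damage or stress and either occupy the anti-apoptotic proteins or activate the effectors directly. HRK, also called Harakiri, is a BH3-only protein studied mainly in neurons deprived of growth factors, where JUN signalling is known to induce it, and it binds BCL2L1 (BCL-XL) and BCL2. BBC3 encodes PUMA and PMAIP1 encodes NOXA, both known to be induced by DNA damage, and BCL2L11 encodes BIM, a known target of FOXO3.

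The promoters of the 4 BH3-only genes are shown as a description, a choice made with the RNA values known. Whether they bear on how the RNA moved between the groups was not tested. Each window runs from 250 bases before to 50 bases after 1 start of the gene in RefSeq (GRCh38.p14), on the strand of the gene. That start can differ from the gene's end in other annotation. The BCL2L11 window, from 111120664, lies inside the gene of GENCODE release 29, which begins at 111119378. Matches and their absence hold for the start used only. Windows were found for 8 of the 10 genes (BCL2L2 and MCL1 had none in the table used). Capitals mark matches, on either strand, to 7 motifs: the GC box GGGCGG, the AP-1 motif TGANTCA, the cyclic AMP response element TGACGTCA, the FOXO motif GTAAACA, the E2F motif TTCCCGC, the CCAAT box CCAAT and the TATA box TATAAA. No capitalised match overlaps another in these 4 windows.
HRK, chr12:116881392-116881691, minus strand: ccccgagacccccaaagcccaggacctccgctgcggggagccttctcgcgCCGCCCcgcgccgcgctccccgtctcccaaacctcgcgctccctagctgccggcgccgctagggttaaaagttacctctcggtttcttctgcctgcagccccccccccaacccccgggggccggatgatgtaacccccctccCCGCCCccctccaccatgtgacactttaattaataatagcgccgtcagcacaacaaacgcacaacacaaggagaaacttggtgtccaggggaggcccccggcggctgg
BBC3, chr19:47232618-47232917, minus strand: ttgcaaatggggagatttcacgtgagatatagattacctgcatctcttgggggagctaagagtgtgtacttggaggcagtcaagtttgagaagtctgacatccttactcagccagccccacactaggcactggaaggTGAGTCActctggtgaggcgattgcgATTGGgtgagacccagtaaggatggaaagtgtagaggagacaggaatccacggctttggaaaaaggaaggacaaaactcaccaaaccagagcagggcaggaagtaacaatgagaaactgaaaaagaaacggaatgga
PMAIP1, chr18:59899746-59900045, plus strand: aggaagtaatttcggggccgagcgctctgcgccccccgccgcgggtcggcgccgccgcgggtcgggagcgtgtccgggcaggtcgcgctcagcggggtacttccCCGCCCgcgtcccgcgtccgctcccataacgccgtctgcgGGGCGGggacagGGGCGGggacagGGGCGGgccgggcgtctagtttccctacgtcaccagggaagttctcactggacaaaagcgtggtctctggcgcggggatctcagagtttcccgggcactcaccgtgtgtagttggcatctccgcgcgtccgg
BCL2L11, chr2:111120664-111120963, plus strand: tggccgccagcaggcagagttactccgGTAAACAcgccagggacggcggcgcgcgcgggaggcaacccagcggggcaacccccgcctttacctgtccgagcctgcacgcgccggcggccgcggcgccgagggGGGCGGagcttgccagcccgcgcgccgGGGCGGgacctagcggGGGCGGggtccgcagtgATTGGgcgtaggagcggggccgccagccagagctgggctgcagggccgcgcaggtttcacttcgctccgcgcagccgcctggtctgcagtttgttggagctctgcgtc

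The HRK window held 25 CpG dinucleotides at 66.3% GC, above 70.5% of all 35116 RefSeq promoter windows of that length in GC content. Its capitals are 2 GC boxes, 200 and 58 bases before the start, and no other motif of the 7 was matched. The GC box was found in 44.95% of all windows. Of the windows not shown, those of BAX and BAK1 also held 2 GC boxes each, that of BCL2 held 0, and those of BCL2L1 held 0 and 1. PMAIP1 had 4 GC boxes, between 146 and 82 bases before the start. BCL2L11 had 3 GC boxes, 1 CCAAT box and 1 FOXO motif 223 bases before the start, a motif present in 3.42% of all windows. BBC3, at 48.0% GC with 5 CpG, had no GC box but 1 AP-1 motif 113 bases before the start, present in 7.71% of all windows, and 1 CCAAT box, present in 34.6%. E2F motifs (6.55% of all windows), cyclic AMP response elements (1.85%) and TATA boxes (11.5%) were not matched in the 4 windows. A match is a run of letters only, and says nothing of binding in these cells.

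Read counts per library totalled 13851760 to 15533668. Levels are given in CPM, read counts relative to the library size after TMM scaling, and fold changes come from edgeR's quasi-likelihood test on the counts, fitted to all 9 libraries. An adjusted p comes from that test with Benjamini-Hochberg adjustment across all 16450 genes, and genes with an adjusted p under 0.05 were called. Of 10 markers of epithelial ovarian cancer cells, all were detected, with a summed level of 2909 to 3346 CPM in Carbo+COM33, 3778 to 4098 CPM in Carbo and 3968 to 4153 CPM in control. Of these, KRT7 and ERBB2 fell in Carbo+COM33 against both Carbo and control, and MSLN fell against control. PAX8 stood higher in Carbo+COM33, by 0.55 against Carbo on the log2 scale (adjusted p = 0.0713 by edgeR), and was called against Carbo in DESeq2 and with the replicate block (adjusted p = 0.0175 and 0.0279). The part of these markers in the results below was not tested. The 6 markers of blood and immune cells summed to at most 1.46 CPM in any library, with the T-cell gene CD3E at 0 in all Carbo+COM33 and Carbo libraries. The 7 markers of endothelium, fibroblasts, liver, nerve and muscle summed to 10.5 to 41.7 CPM, most of it COL1A1. Mitochondrially encoded genes took 2.80% of the counts in Carbo+COM33 3 and 2.66% in control 1, against 3.14% to 3.82% in the other libraries. Carbo+COM33 3 also had the highest level of its group for 8 of the 10 family members, HRK and BCL2 excepted, so the values of a member without it are given where they moved by over 0.1 on the log2 scale.

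Of the BH3-only genes, HRK set the Carbo+COM33 libraries apart by the most. It had 47.3, 44.1 and 46.8 CPM in Carbo+COM33, 18.3, 14.6 and 10.4 CPM in Carbo, and 21.9, 18.4 and 15.8 CPM in control. The 3 Carbo+COM33 libraries lay close together and above all 6 others, while the Carbo and control libraries overlapped. These levels rest on 633 to 677 counts per library in Carbo+COM33, 149 to 272 in Carbo and 232 to 316 in control. In RNA from whole cultures, more cells that express a gene and more RNA per cell cannot be told apart.

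In the comparison of Carbo+COM33 with Carbo, which asks what COM33 adds, HRK rose 3.20-fold (log2 fold change 1.68, SE 0.17, 95% interval of the fold 2.47 to 4.14, adjusted p = 5.02e-04). By size this was rank 33 among upward changes over the 16450 genes, and by p rank 5. In the comparison of Carbo+COM33 with control it rose 2.46-fold (log2 fold change 1.30, SE 0.17, 95% interval of the fold 1.91 to 3.17, adjusted p = 0.00192), at rank 54 by size. Across the family, 1 of 10 genes was called in Carbo+COM33 against Carbo, upward, where 2.43% of all tested genes were called upward, 2.53% downward and 4.96% in all. Against control it was again 1 of 10, upward, where 3.20% of tested genes were called upward, 3.09% downward and 6.29% in all. These comparisons share the Carbo+COM33 libraries. HRK was called in both under all 18 alternatives run for each, with log2 fold changes of 1.49 to 1.88 against Carbo and 1.19 to 1.43 against control when 1 library was left out.

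**Figure D1:**
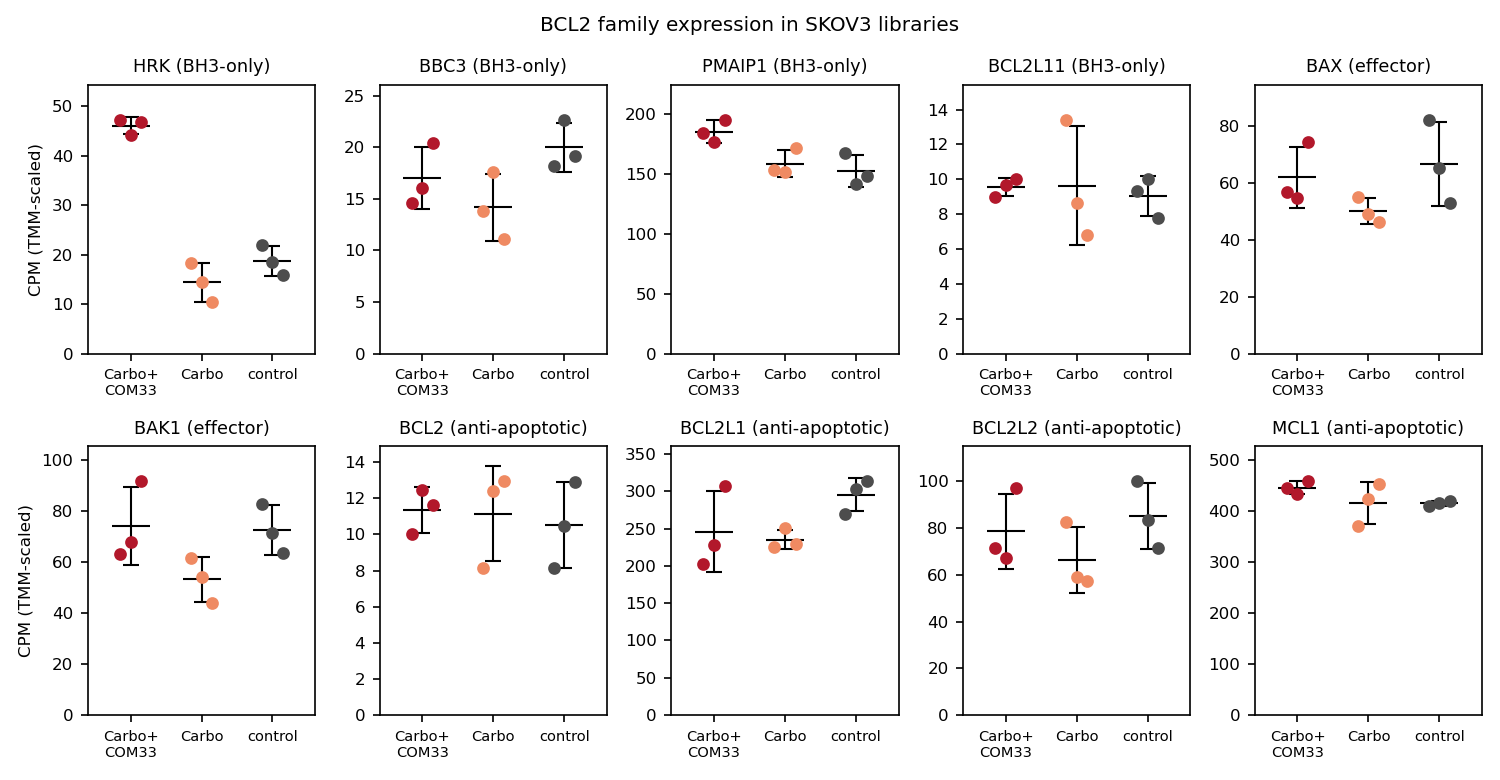
CPM of each of the 10 genes in every library, with Carbo+COM33, Carbo and control from left to right in each panel; points are libraries and bars the group means. HRK is the only panel in which the 3 Carbo+COM33 libraries, at 44.1 to 47.3 CPM, stand more than 2-fold above every library of the other groups.

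HRK spans 116856144 to 116881441 on chromosome 12 (GRCh38, minus strand; ENSG00000135116), and no exon of another annotated gene overlaps its exons. Its 3 nearest tested neighbours on each side were not called in Carbo+COM33 against Carbo. RNFT2, whose end lies 2.51 kb away, was at 2.26 ± 0.121 CPM in Carbo+COM33 and 1.95 ± 0.342 CPM in Carbo (SD, n = 3 each; log2 fold change 0.21, adjusted p = 0.664 by edgeR). FBXW8, 29.5 kb away on the other side, was at 37.8 CPM in both groups (log2 fold change -0.0018, a sign that turned in 10 of 18 alternatives). The log2 fold changes of FBXO21, NOS1 and MAP1LC3B2 were 0.01, 0.21 and 0.32. NOS1 was called without Carbo 1 (0.37, adjusted p = 0.0274), and MAP1LC3B2 stood at 0.04 without Carbo+COM33 3. MAP1LC3B2 is a near copy of MAP1LC3B, so its reads are uncertain. C12orf49 stood at 0.46 (adjusted p = 0.105) and was called in 3 alternatives, among them without Carbo 1 (log2 fold change 0.71, adjusted p = 6.27e-04).

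**Figure D2:**
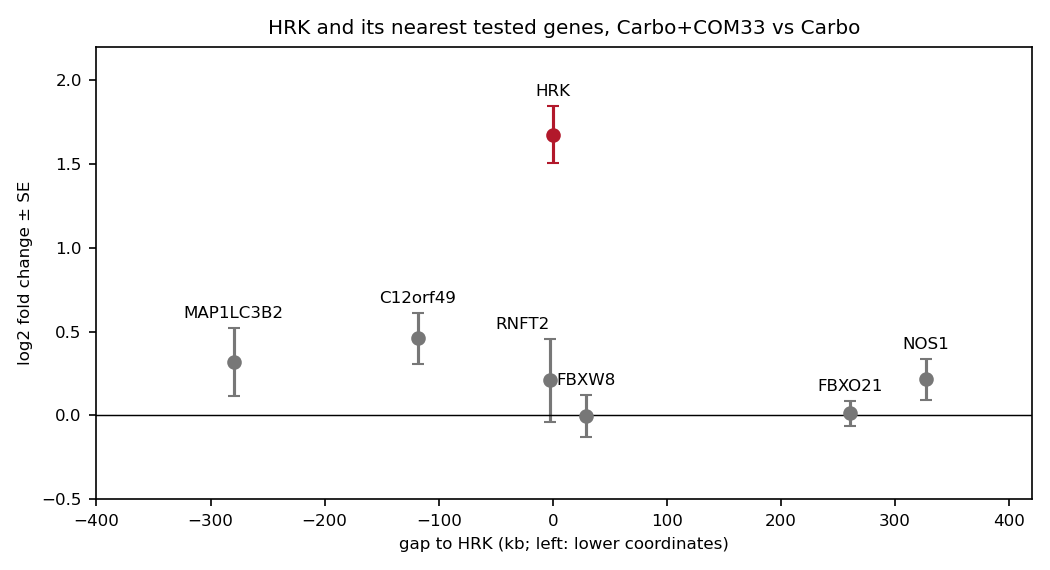
Log2 fold change of Carbo+COM33 over Carbo with its SE (vertical axis) for HRK and the 6 nearest tested genes, by their gap to HRK in kb (horizontal axis). HRK stands at 1.68, and the neighbours lie between -0.0018 and 0.46.

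The other 3 BH3-only genes were not called in either comparison with Carbo+COM33. PMAIP1, whose protein binds MCL1, had 184, 177 and 196 CPM in Carbo+COM33, 153, 152 and 172 CPM in Carbo, and 168, 142 and 148 CPM in control. Its Carbo+COM33 libraries lay above all 6 others, by a small margin. On the log2 scale PMAIP1 differed by 0.22 from Carbo (SE 0.09, adjusted p = 0.154) and by 0.28 from control (SE 0.09, adjusted p = 0.0730). Against control it passed the threshold without control 1 (0.36, adjusted p = 0.0374), without Carbo 1 (adjusted p = 0.0479) and in DESeq2 (adjusted p = 0.0376).

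BBC3 did not separate the groups in this way. It had 14.6, 16.0 and 20.4 CPM in Carbo+COM33, 13.8, 17.6 and 11.1 CPM in Carbo, and 18.1, 22.7 and 19.1 CPM in control, so Carbo+COM33 overlapped both. Its log2 fold change was 0.26 against Carbo (95% interval -0.12 to 0.65, adjusted p = 0.409) and -0.23 against control (95% interval -0.61 to 0.15, adjusted p = 0.451). Without Carbo+COM33 3 the values of BBC3 were 0.11 and -0.38. BCL2L11 was the scarcest of the 4, at 8.97, 9.69 and 10.0 CPM in Carbo+COM33, 13.4, 8.64 and 6.82 CPM in Carbo, and 9.34, 10.0 and 7.79 CPM in control. The 3 groups overlapped, and Carbo 1 was its highest library. The log2 fold change of BCL2L11 was -0.01 against Carbo (95% interval -0.47 to 0.45) and 0.08 against control (95% interval -0.38 to 0.54), with adjusted p of 0.985 and 0.859 by edgeR. For BCL2L11, 10.9% of the exon bases are shared with the opposite-strand gene MIR4435-2HG, and whether reads were counted by strand is not given in the sources used here, so its counts are uncertain.

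Both effectors averaged higher in Carbo+COM33 than in Carbo, without passing the test. BAK1 had 63.0, 67.9 and 91.7 CPM in Carbo+COM33, 61.4, 54.1 and 43.9 CPM in Carbo, and 82.8, 71.4 and 63.3 CPM in control. Its Carbo+COM33 libraries lay above the Carbo libraries and overlapped the control libraries. The log2 fold change of BAK1 against Carbo was 0.48 (SE 0.16, 95% interval 0.15 to 0.82, adjusted p = 0.0919); it passed the threshold without Carbo 1 (0.60, adjusted p = 0.0177), in DESeq2 (adjusted p = 0.0398), with no filter on low counts, and after correction for GC content and length (adjusted p = 0.0444). Without Carbo+COM33 3 the value of BAK1 against Carbo was 0.30 (adjusted p = 0.256). Against control it was 0.03 (adjusted p = 0.922), and -0.15 without Carbo+COM33 3.

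BAX had 56.7, 54.9 and 74.5 CPM in Carbo+COM33, 55.1, 49.0 and 46.2 CPM in Carbo, and 82.4, 65.3 and 53.0 CPM in control. The Carbo+COM33 libraries overlapped the Carbo libraries by a small margin and lay within the control range. For BAX the log2 fold change was 0.31 against Carbo (SE 0.16, adjusted p = 0.264) and -0.11 against control (SE 0.15, adjusted p = 0.716), and without Carbo+COM33 3 it was 0.16 and -0.26 (adjusted p = 0.610 and 0.296).

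The anti-apoptotic genes were not called either. MCL1, which encodes a short-lived guardian that NOXA targets, had 445, 433 and 459 CPM in Carbo+COM33, 371, 423 and 453 CPM in Carbo, and 409, 416 and 419 CPM in control. Its Carbo+COM33 libraries lay above the control libraries and overlapped those of Carbo. For MCL1 the log2 fold change was 0.10 in both comparisons (SE 0.08 each; adjusted p = 0.514 against Carbo and 0.481 against control).

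BCL2L1, which encodes BCL-XL, had 202, 229 and 307.5 CPM in Carbo+COM33, 226, 250 and 230 CPM in Carbo, and 270, 303 and 314 CPM in control. In Carbo+COM33 the libraries spread widely, with Carbo+COM33 3 among the control values and the other libraries below them. The log2 fold change of BCL2L1 was 0.07 against Carbo (adjusted p = 0.812) and -0.26 against control (adjusted p = 0.232). Without Carbo+COM33 3 the value against control was -0.46 and was called (adjusted p = 0.0123), and the value against Carbo was -0.13. Of the exon bases of BCL2L1, 43.0% are shared with the opposite-strand gene ABALON, which had 282 counts over all libraries against 34145 for BCL2L1.

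BCL2L2, which encodes BCL-W, had 71.4, 67.3 and 97.1 CPM in Carbo+COM33, 82.7, 58.9 and 57.4 CPM in Carbo, and 100.1, 83.6 and 71.6 CPM in control. All 3 groups overlapped. For BCL2L2 the log2 fold change was 0.25 against Carbo (adjusted p = 0.427) and -0.11 against control (adjusted p = 0.729). Without Carbo+COM33 3 the values of BCL2L2 were 0.06 and -0.30. BCL2L2 shares 19.4% of its exon bases with the read-through gene BCL2L2-PABPN1 and 4.92% with the opposite-strand PPP1R3E, so its counts are uncertain. BCL2, the founding member, was scarce, at 10.0, 12.5 and 11.6 CPM in Carbo+COM33, 8.13, 12.4 and 13.0 CPM in Carbo, and 8.17, 10.4 and 12.9 CPM in control. These ranges also overlapped, with log2 fold changes of 0.03 against Carbo (95% interval -0.41 to 0.46) and 0.11 against control (95% interval -0.32 to 0.55).

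Across the family, the 3 libraries of Carbo+COM33 lay above the 3 of Carbo for 3 members (HRK, PMAIP1 and BAK1), where 11.7% of tested genes did so. Relative to control this held for HRK, PMAIP1 and MCL1, where the share over tested genes was 14.3%. The 95% interval of the log2 fold change of HRK against Carbo, 1.31 to 2.05, lay above the intervals of all 9 other members, of which the highest upper end was 0.82 for BAK1. The medians of all tested genes were -0.01 in both comparisons.

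**Figure D3:**
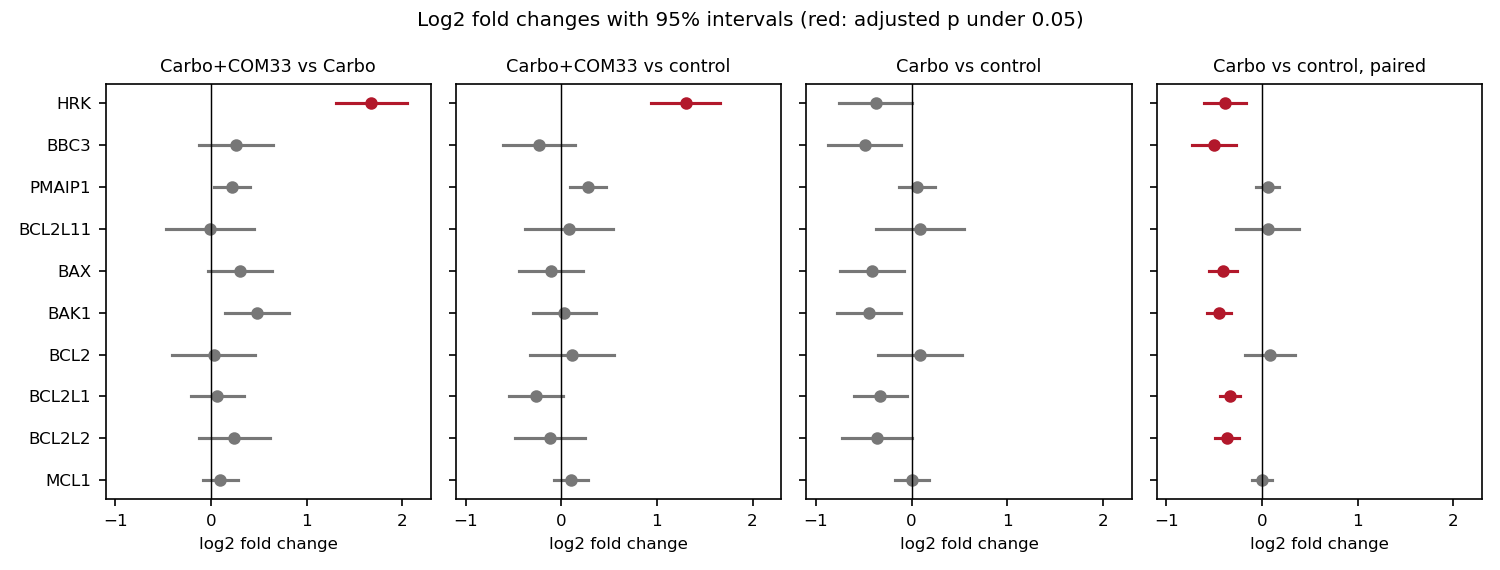
Log2 fold changes with 95% intervals from edgeR for the 10 genes in each comparison, with the first-named group over the second. The HRK interval against Carbo, 1.31 to 2.05, lies to the right of every other interval in its panel.

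Carbo against control asks what carboplatin alone changed. The unpaired edgeR test called 0 of the 10 genes and 0 of all 16450 (0.00%). At an unadjusted p under 0.05 there were 4 of the 10 (BBC3, BAX, BAK1 and BCL2L1) and 16.7% of all tested genes, and DESeq2 called 0 of the 10 and 133 (0.809%) of all. Same-numbered Carbo and control libraries deviated together in these counts, so the comparison was also fitted in pairs, with replicate number as a block. The labels do not state this pairing, and the calls of the paired fit rest on it. In that paired fit 6 of the 10 genes fell and 0 rose, where 11.5% of tested genes fell, 11.2% rose and 22.7% were called in all.

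The 6 genes came from all 3 classes. Each was lower in Carbo than in control in 3 of 3 pairs, on the log2 scale of CPM. BAK1 differed by -0.43, -0.40 and -0.53 in pairs 1 to 3, and its paired log2 fold change was -0.45 (SE 0.06, adjusted p = 7.66e-05). BCL2L1 differed by -0.26, -0.28 and -0.45 (paired log2 fold change -0.33, SE 0.05, adjusted p = 1.93e-04). These spread least between pairs among the 6, and with BBC3 the genes whose Carbo libraries all lay below the control libraries, as they did for 11.7% of tested genes.

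BCL2L2 had a paired log2 fold change of -0.37 (adjusted p = 4.02e-04) and BAX one of -0.41 (adjusted p = 6.18e-04). BBC3 differed by -0.39, -0.37 and -0.79, with a paired log2 fold change of -0.50 (SE 0.11, adjusted p = 0.00292). HRK differed by -0.26, -0.34 and -0.61, with a paired log2 fold change of -0.39 (SE 0.10, adjusted p = 0.0125). The call of HRK was lost without pair 2 (-0.42, adjusted p = 0.0606) and without pair 3 (-0.30, adjusted p = 0.0838); these fits were added after the data were seen. In the unpaired test HRK stood at -0.38 (adjusted p = 0.304). Leaving out Carbo 1 from the unpaired test gave -0.58 for HRK (adjusted p = 0.0474), a call, along with BAK1 (-0.56) and BCL2L2 (-0.55). Carbo 1 and control 1 were each the highest library of their group for these genes. That fit kept control 1, which widens the differences. In that fit 1034 of all 16450 genes were called.

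PMAIP1, BCL2L11, BCL2 and MCL1 were not called in the paired fit. PMAIP1 differed by -0.13, 0.10 and 0.21 in pairs 1 to 3, and was called upward without pair 1 (0.15, adjusted p = 0.0240). MCL1 differed by -0.14, 0.02 and 0.11, a spread around 0. BCL2L11 was higher in pair 1, by 0.52, and lower in the other pairs, by -0.22 and -0.19. BCL2 differed by -0.01, 0.25 and 0.00.

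The division between the 6 genes that fell and the other 4 coincided with GC content. The annotated transcripts of the 6 had 50.2% (HRK) to 64.5% GC (BBC3), and those of the other 4 had 43.6% to 46.8%. Over all tested genes the paired log2 fold change had a median of 0.18 below 40% GC and -0.24 at 60% and above. The share that fell was 1.43% between 40% and 45%, 4.33% between 45% and 50%, 10.3% between 50% and 55%, 21.6% between 55% and 60% and 36.4% at 60% and above. With each library corrected for its dependence on GC content and transcript length, the paired fit called 5 of the 10, all lower in Carbo, where 5.90% of tested genes fell and 10.0% were called in all. HRK stood at -0.40 (adjusted p = 0.0134), BAK1 at -0.29 (adjusted p = 0.00249), BCL2L2 at -0.27 (adjusted p = 0.00437), BAX at -0.23 (adjusted p = 0.0400) and BCL2L1 at -0.22 (adjusted p = 0.00324). BBC3, at -0.26, was no longer called (adjusted p = 0.122). HRK was as large with the correction as without it, and BBC3 moved by the most.

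**Figure D4:**
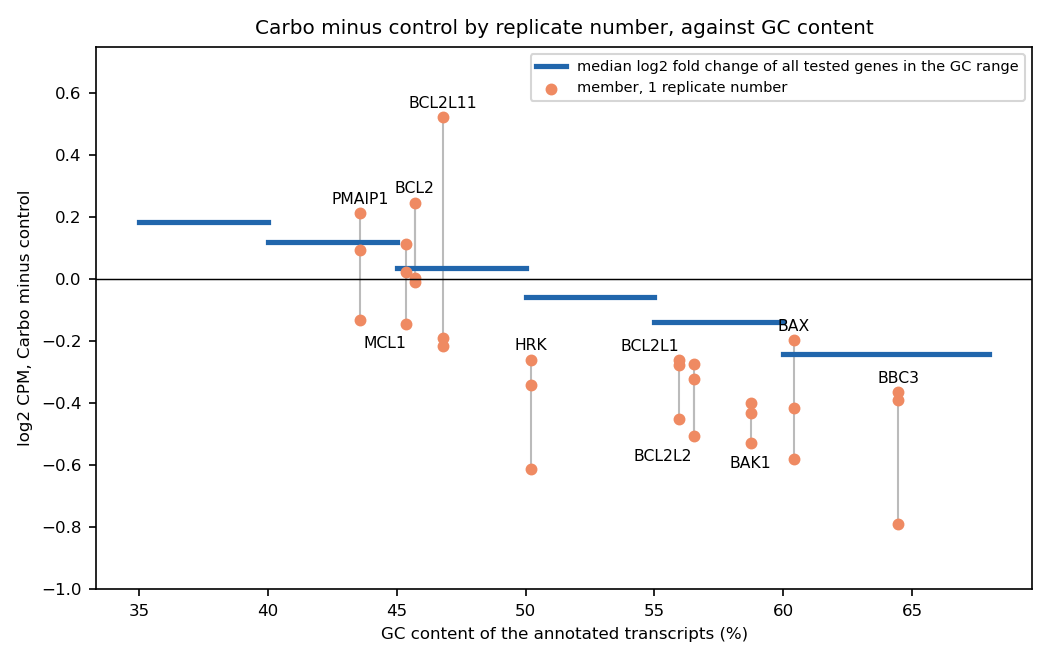
Difference in log2 CPM, Carbo minus control, in each of the 3 pairs (points, joined by a line for each gene) against the GC content of the gene's transcripts in percent; blue bars are the medians of the paired log2 fold change over all tested genes in each range of GC, and genes with nearly equal GC are drawn slightly apart. The 6 genes from HRK at 50.2% GC to BBC3 at 64.5% lie below 0 in every pair.

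Levels of different genes were compared in the deposited FPKM, which divide the count by transcript length. MCL1 was the most abundant member, at a mean of 97.3 FPKM over the 9 libraries, and above BCL2L1 in all 9. BCL2L1 (78.2) and PMAIP1 (74.1) could not be ordered, since BCL2L1 was higher in 5 of 9 libraries. BAK1 (30.1), BAX (23.1) and BCL2L2 (18.3) followed in that order in all 9. Below them stood BBC3 (5.37), HRK (3.83), BCL2L11 (1.41) and BCL2 (0.936), the last pair in this order in 8 of 9 libraries.

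HRK changed place in this order between the groups. It had 6.78, 6.37 and 6.77 FPKM in Carbo+COM33, 2.68, 2.15 and 1.51 FPKM in Carbo, and 3.18, 2.72 and 2.33 FPKM in control. It was above BBC3 in 3 of 3 Carbo+COM33 libraries and below BBC3 in the 6 others. Within the summed FPKM of the 4 BH3-only genes, HRK made up 6.97% ± 0.289 in Carbo+COM33, 2.67% ± 0.806 in Carbo and 3.46% ± 0.361 in control (SD, n = 3 each). PMAIP1 made up most of that sum in every group, at 86.0% ± 0.461 in Carbo+COM33, 89.8% ± 2.53 in Carbo and 86.8% ± 1.66 in control.

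The summed FPKM of the listed members of each class moved less than HRK. These sums leave out other family genes, such as BAD, BID and BMF, and most of the BH3-only sum is PMAIP1. The BH3-only genes summed to 95.4 ± 5.39 FPKM in Carbo+COM33, 79.6 ± 2.84 in Carbo and 79.1 ± 5.33 in control, and the lowest Carbo+COM33 library (91.1) was above the highest of the others (85.2). As a share of the summed FPKM of the 10 genes, they took 25.9% to 29.2% in Carbo+COM33, 25.0% to 26.9% in Carbo and 22.01% to 24.1% in control. The effectors summed to 56.8 ± 11.1 FPKM in Carbo+COM33, 43.7 ± 5.85 in Carbo and 58.9 ± 9.84 in control. The anti-apoptotic genes summed to 194 ± 23.0 FPKM in Carbo+COM33, 184 ± 8.36 in Carbo and 207 ± 6.25 in control, and took 55.4% to 56.2% of the family's FPKM in Carbo+COM33, 57.8% to 60.9% in Carbo and 56.4% to 62.6% in control. FPKM are not scaled by TMM, and these sums are a description with no test.

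**Figure D5:**
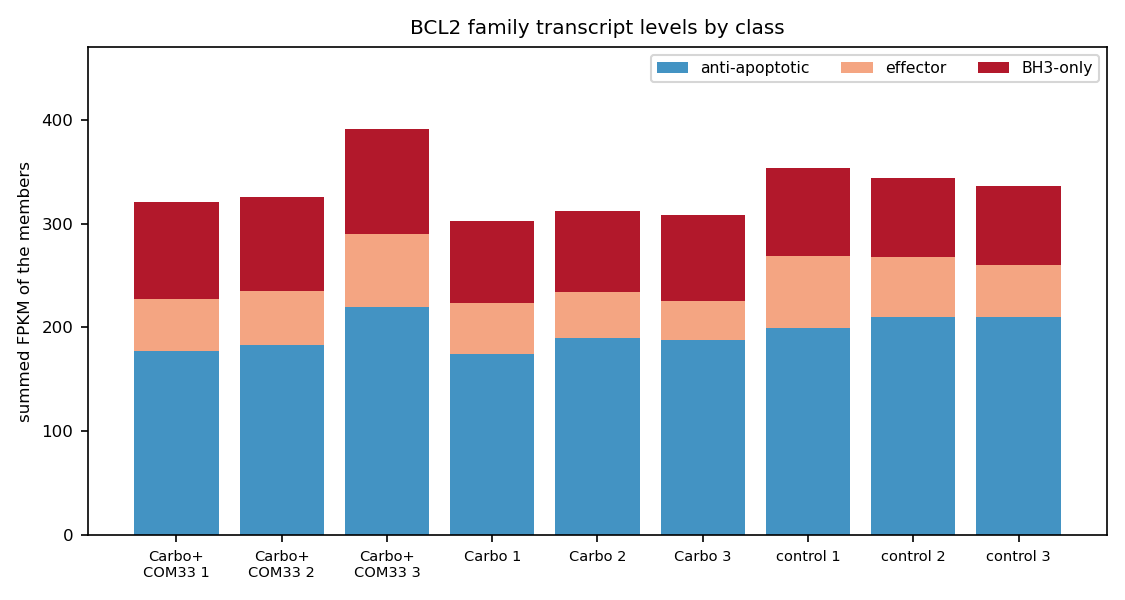
Deposited FPKM of the 10 genes in each library of Carbo+COM33, Carbo and control, summed by class and stacked (anti-apoptotic, effector and BH3-only). Single genes are not drawn. The BH3-only genes sum to 91.1 to 101.4 in Carbo+COM33 and to 75.7 to 85.2 in the other libraries. In the underlying values HRK had 6.37 to 6.78 FPKM in Carbo+COM33 and 1.51 to 3.18 in the other libraries. In the same underlying values MCL1 had 85.4 to 104 FPKM over all libraries.

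Other genes of the mitochondrial pathway were read from 5 lists, beside the shares of all tested genes called by edgeR given above. Over all tested genes, 22.4% had an unadjusted p under 0.05 and 8.15% were called by DESeq2 in Carbo+COM33 against Carbo. Against control these shares were 24.0% and 9.50%. Of 14 further BCL2 family genes, such as BAD, BID, BMF and BNIP3, 10 were tested and 0 were called by edgeR in either comparison with Carbo+COM33 (median log2 fold change -0.01 against Carbo and -0.18 against control; 1 and 3 at an unadjusted p under 0.05, and 0 and 1 in DESeq2). Of 7 genes for the apoptosome and caspases, 0 were called by edgeR against Carbo (median -0.13; 2 at an unadjusted p under 0.05, and 1 called in DESeq2) or against control (median 0.06; 1 at an unadjusted p under 0.05, and 0 called in DESeq2). The largest log2 fold change of this list against Carbo was 0.51, for CYCS, which encodes cytochrome c (adjusted p = 0.0675 by edgeR). CYCS was the gene called in DESeq2 (adjusted p = 0.0212), and edgeR called it without Carbo 1, without control 1 and with no filter on low counts. CYCS had 78.1, 76.3 and 90.8 CPM in Carbo+COM33, 71.3, 50.7 and 50.5 CPM in Carbo, and 86.9, 65.5 and 65.1 CPM in control. All 3 Carbo+COM33 libraries lay above the Carbo libraries, and they overlapped the control libraries.

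Of 10 genes for inhibitor of apoptosis (IAP) proteins and their antagonists, 0 were called against Carbo by edgeR (median -0.08; 5 at an unadjusted p under 0.05, 1 in DESeq2) and 1 rose against control (median -0.02). This was BIRC3, which encodes cIAP2, at 48.2, 48.0 and 36.4 CPM in Carbo+COM33, 27.9, 32.7 and 45.7 CPM in Carbo, and 23.2, 23.8 and 26.8 CPM in control (log2 fold change against control 0.84, adjusted p = 0.0153 by edgeR). It was not called without control 2, Carbo+COM33 1 or Carbo+COM33 2 (adjusted p up to 0.0863). Of 13 genes for partners at the outer membrane and for turnover of family proteins, 0 were called by edgeR or DESeq2 against Carbo (median -0.0032; 1 at an unadjusted p under 0.05) or control (median 0.07; 2 at an unadjusted p under 0.05).

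Of 19 transcription factors known to act on BH3-only genes, 3 rose and 1 fell in Carbo+COM33 against Carbo (median 0.07), and 2 rose and 0 fell against control (median -0.06). JUN, a subunit of AP-1, had 763, 749 and 846 CPM in Carbo+COM33, 593, 608 and 562 CPM in Carbo, and 657, 623 and 587 CPM in control. All 3 Carbo+COM33 libraries were above the other 6, and the log2 fold change was 0.42 against Carbo (adjusted p = 0.0120) and 0.34 against control (adjusted p = 0.0303). The call of JUN was lost in both comparisons with the replicate block (adjusted p = 0.0626 against Carbo and 0.0602 against control). It was also lost without Carbo 2 or Carbo 3 in the comparison with Carbo (adjusted p up to 0.0610), and without control 2, control 3, Carbo 2, Carbo+COM33 1 or Carbo+COM33 2 in that with control (adjusted p up to 0.135).

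FOXO3, a forkhead factor, had 255, 239 and 218 CPM in Carbo+COM33, 193, 158 and 154 CPM in Carbo, and 190, 170 and 155 CPM in control. The Carbo+COM33 libraries were again the highest, with log2 fold changes of 0.50 against Carbo (adjusted p = 0.0202) and 0.47 against control (adjusted p = 0.0256). Without Carbo+COM33 1 or Carbo+COM33 2 FOXO3 was called in neither comparison, nor without Carbo 2 or Carbo 3 against Carbo (adjusted p up to 0.126) or without control 2 or control 3 against control (adjusted p up to 0.135). ATF3, a stress-induced factor, rose by 0.71 against Carbo (adjusted p = 0.0146), and was not called without Carbo 2, Carbo 3, Carbo+COM33 2 or Carbo+COM33 3 (adjusted p up to 0.0921).

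E2F1, a factor of S-phase entry, had 16.7, 15.8 and 20.1 CPM in Carbo+COM33, 24.5, 41.6 and 49.1 CPM in Carbo, and 21.0, 26.7 and 27.0 CPM in control. It was lowest in the Carbo+COM33 libraries, and its log2 fold change against Carbo was -1.13 (adjusted p = 0.0106, up to 0.0669 without Carbo 2, Carbo+COM33 1 or Carbo+COM33 2). Whether any of these factors act on HRK here was not tested.

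In Carbo against control, 0 of the 59 tested genes of the 5 lists were called without pairing by edgeR or DESeq2. The shares of all tested genes were 0.00% and 0.809%. By edgeR 18 of the 59 had an unadjusted p under 0.05, where 16.7% of all tested genes did. The paired fit called 24 of the 59, where 11.2% of all tested genes rose, 11.5% fell and 22.7% were called in all. In the paired fit, 0 of the further BCL2 family genes rose and 4 fell, BNIP3, a mitophagy receptor, by the most (-0.50, adjusted p = 8.22e-04). Of the caspase list 2 rose and 1 fell, with CASP2, an initiator caspase, at 0.36 and CYCS, cytochrome c, at -0.34. Of the IAP list 4 rose and 1 fell, with BIRC3 at 0.51 and HTRA2, a mitochondrial protease that antagonises IAP proteins, at -0.55 (adjusted p = 0.0191, and lost without pair 1 or pair 3 and with the GC and length correction). Of the outer membrane list 4 rose and 0 fell, with DNM1L, the mitochondrial fission GTPase, at 0.28 and OPA1, which fuses inner membranes, at 0.25. Of the transcription factors 3 rose and 5 fell, with E2F1 at 0.60, EGR1, an immediate early gene, at 0.45 (lost without pair 2) and CEBPB at -0.43. The paired calls in the 5 lists went from 24 to 13 with the GC and length correction. In that corrected fit 4.10% of all tested genes rose and 5.90% fell. Corrected, 0 of the further BCL2 family genes rose and 3 fell, with BNIP3 at -0.49. Of the caspase list 1 rose and 1 fell, with CASP2 at 0.30 and CYCS at -0.48. Of the IAP list 2 rose and 1 fell, with BIRC3 at 0.28, HTRA2 at -0.43 (adjusted p = 0.0983, not called) and XIAP, an inhibitor of caspases, at -0.30 as the member that fell. Of the outer membrane list 0 were called, and of the transcription factors 3 rose and 2 fell, with E2F1 at 0.82, EGR1 at 0.55 and CEBPB at -0.13 (adjusted p = 0.184, not called).

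The 5 genes whose log2 CPM followed HRK most closely over the 9 libraries, by Pearson's r, were PLEKHM1 (0.997), MAP1LC3B (0.989), LRP1 (0.989), NDRG4 (0.989) and TLN2 (0.988). These were picked as the highest of 16450 genes, over libraries that share 3 groups, and carry no p. PLEKHM1 encodes an adaptor of lysosome fusion, and had 251, 247.5 and 256.5 CPM in Carbo+COM33, 169, 150.2 and 137 CPM in Carbo, and 190, 169.5 and 160.1 CPM in control. As for HRK, control 1 was the highest control library and Carbo 3 the lowest Carbo library. NDRG4 averaged 81.7 ± 1.75 CPM in Carbo+COM33, 25.3 ± 8.11 CPM in Carbo and 29.2 ± 6.01 CPM in control (SD, n = 3 each), close to HRK in the size of its change (log2 fold change 1.69 against Carbo). The log2 fold changes of the others against Carbo were 1.35 for TLN2, a talin, 0.81 for LRP1, an endocytic receptor, 0.73 for PLEKHM1 and 0.48 for MAP1LC3B, the autophagosome protein LC3B.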

How the data were processed

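Poly-A RNA of 9 SKOV3 libraries, 3 a group, was sequenced as paired-end reads, per the labels' protocols. The authors deposited whole-number read counts per gene and FPKM values for each library; HISAT2, HTSeq 0.11.2, DESeq2 1.26.0 and the build GRCh38 are named in the submitters' processing notes, without settings. All 32378 identifiers and names matched GENCODE release 29, and the deposited FPKM equalled the count divided by union exon length and library total for 32295 genes (within 1e-06), BCL2L11 not among them. Every gene had a count in some library. Total counts of 13851760 to 15533668 limit the precision of low genes.

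The counts were tested with edgeR 4.0.16 (R 4.3.3, limma 3.58.1): filterByExpr left 16450 genes, TMM factors ran from 0.982 to 1.01, and a quasi-likelihood model with a coefficient per group was fitted to all 9 libraries (6 residual degrees of freedom, common dispersion 0.0133). P-values were adjusted by Benjamini-Hochberg over the 16450 genes and called under 0.05. The SE is the log2 fold change divided by the square root of F; intervals are at 95%. On simulated data for Carbo+COM33 against Carbo with 16450 genes, 30 of 50 genes changed 1.5-fold and 50 of 50 changed 2-fold were recovered. The simulated counts had the common dispersion for every gene, no pairing and no GC trend, and the changed genes had mean counts over 50. They check that the code runs as intended, and do not measure how many changes would be found in the real libraries. Log2 CPM used a prior count of 2.

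Same-numbered Carbo and control libraries deviated together from their group means (correlations across 6601 genes with a mean log2 CPM over 5 of 0.825, 0.565 and 0.748, each over 0.1), so these numbers were taken to pair the libraries; the pairing comes from the data, as the labels do not state it. Of the unlike-numbered libraries, Carbo 2 with control 3 (0.403) and Carbo 3 with control 2 (0.254) also correlated positively, and the others negatively. Pairs 2 and 3 are thus less distinct from each other than from pair 1. The paired fit took replicate number as a block within the 6 Carbo and control libraries (2 residual degrees of freedom). Alternatives were other normalizations (RLE, upper quartile), other filters, only the 2 groups compared, the replicate block, offsets for GC content and length (mgcv 1.9.3), each library left out, and DESeq2 1.42.0. Members were named by list; list genes were named if called, by size, up to 5 a list and comparison; the 3 nearest tested genes on each side of HRK and the 5 most correlated with it were named by rule. The members and lists were chosen with earlier results of these data known, and 3 genes first listed are left out of every list count and not reported here. Tables and figures used Python 3.11.15, pandas 2.3.3, numpy 2.4.6, scipy 1.17.1 and matplotlib 3.10.9.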

Additional observations from a re-analysis of the deposited data

How the results depend on the processing

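HRK was called in Carbo+COM33 against Carbo and against control under all 18 alternatives run for each. Counts of calls over all genes are given with Carbo set against control, Carbo+COM33 set against Carbo and last Carbo+COM33 set against control. They were 0, 816 and 1035 of 16450 genes in the fit reported. With no filter on low counts they were 928, 1876 and 1934 of 32378 genes. In DESeq2 they were 133, 1340 and 1563 of 16450 genes. The GC and length correction gave 1269 for Carbo+COM33 vs Carbo, and with the replicate block 1645 for Carbo vs control and 1611 for Carbo+COM33 vs control. The replicate block alone gave 3739 for Carbo vs control and 502 for Carbo+COM33 vs Carbo; leaving out a pair, an alternative chosen after seeing the data, gave 1597 (pair 2) to 4338 (pair 1), with 2842 without pair 3. In both comparisons with Carbo+COM33 the replicate numbers did not pair the libraries (correlations -0.0146, 0.138 and -0.388 with Carbo, and 0.085, 0.102 and -0.42 with control), and the block left 1 member called in each, HRK. Leaving out 1 library gave 0 to 1034 calls for Carbo vs control (1034 without Carbo 1), 120 (without Carbo 2) to 2721 (without Carbo 1) for Carbo+COM33 vs Carbo, and 114 (without control 2) to 2208 (without Carbo+COM33 3) for Carbo+COM33 vs control. Of the 10 members, leaving out 1 library called 0 to 3, 1 to 2 and 1 to 2 in these comparisons. With no filter 5 members were called in Carbo vs control and 2 in Carbo+COM33 vs Carbo; with the replicate block 6 in Carbo vs control, 5 to 7 without 1 pair and 5 with the GC and length correction; with that correction alone 2 in Carbo+COM33 vs Carbo; and in DESeq2 2 in each comparison with Carbo+COM33. The causes were not tested.

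Signs turned for values near 0, none of them called; the range with 1 library left out is given where it crosses 0. In Carbo vs control, where brackets give the log2 fold change as reported, PMAIP1 (0.058) became -0.046 with the GC and length correction, -0.043 with the block and correction, -0.015 in the block without pair 3 and -0.0011 to 0.13 with 1 library left out. BCL2L11 (0.089) became -0.015 with the block and correction, -0.20 in the block without pair 1 and -0.23 to 0.28 with 1 library left out. BCL2 (0.086) became -0.0094 with the GC and length correction, -0.011 with the block and correction, -5.1e-04 in the block without pair 2 and -0.064 to 0.27 with 1 library left out. MCL1 (0.0026) became -0.0027 with no filter, -0.0039 with the replicate block, -0.091 with the GC and length correction, -0.095 with the block and correction, -0.014 in the block without pair 2, -0.056 in the block without pair 3 and -0.063 to 0.079 with 1 library left out. In Carbo+COM33 vs Carbo, BCL2L11 (-0.011) became 0.039 with the replicate block, 0.0064 with the GC and length correction, 0.056 with the block and correction and -0.20 to 0.30 with 1 library left out. BCL2 (0.028) became -0.16 to 0.15 with 1 library left out. BCL2L1 (0.065) became -0.13 to 0.19 with 1 library left out. FBXW8 (-0.0018) became 0.0048 with RLE, 0.0096 with no filter, 0.0040 with the stricter filter, 0.0035 with only 2 groups, 0.0041 with the replicate block, 0.0048 with DESeq2 and -0.090 to 0.092 with 1 library left out. FBXO21 (0.012) became -0.033 to 0.047 with 1 library left out. In Carbo+COM33 vs control, BCL2L11 (0.078) became -0.019 to 0.16 with 1 library left out. BAX (-0.11) became 0.025 with the GC and length correction, 0.038 with the block and correction and -0.26 to 0.076 with 1 library left out. BAK1 (0.033) became -0.15 to 0.15 with 1 library left out. BCL2 (0.11) became -0.031 to 0.29 with 1 library left out. BCL2L2 (-0.11) became -0.30 to 0.025 with 1 library left out. Depth limits the scarce members, BCL2L11 and BCL2, with 98 to 200 counts a library. No setting moved the median of all genes by over 0.1.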
